A study of Mus musculus with 3 samples.

Results

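The genes of the heterotrimeric G protein system were followed here through osteoclast formation in culture. The members are the single-symbol probe sets whose gene symbol begins with Rgs, Gna, Gnb or Gng followed by the letter or digit of a family member, and they came to 86 probe sets of 45 genes, out of 20380 single-symbol probe sets of 12393 genes. Of the 45 genes, 17 encode RGS proteins, 26 encode G protein subunits (14 alpha, 5 beta and 7 gamma), and 2 fit the symbol rule but are neither: Gnasas1, a noncoding RNA antisense to Gnas, and Gnb1l, a beta-like protein. Bone marrow of C57/BL6 mice was first cultured in 50 ng/ml human M-CSF, a macrophage growth factor, for 3 days, and the macrophages obtained then received 150 ng/ml human RANKL, the cytokine that drives osteoclast formation, for 0, 24 or 72 h. RNA from each time was hybridised to 1 Affymetrix array, so there were 3 arrays in all and no replicates. No culture kept without RANKL for the same hours was among the samples, so RANKL and time in culture cannot be told apart, and the number of mice behind each array is not given in the sources used here.

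A heterotrimeric G protein is the switch that carries the signal of a seven-pass membrane receptor into the cell: an activated receptor makes the alpha subunit exchange GDP for GTP, the alpha subunit parts from the beta-gamma pair, and both act on effectors. Gs raises and Gi lowers cyclic AMP production by adenylyl cyclase, and Gq and G11 activate phospholipase C beta and calcium release. G12 and G13 form a class of their own, which acts on the cytoskeleton. RGS proteins end the signal by speeding up GTP hydrolysis on the alpha subunit. In osteoclasts calcium oscillations feed the transcription factor Nfatc1, and calcitonin, acting through Gs and other G proteins, halts resorption. Mice that lack Rgs10 have osteopetrosis.

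All signals below are median-centred array signals, with the array medians set equal, and each sentence of 3 values runs 0, 24 and 72 h. A signal under a floor of 29.6, a level that 40% of all gene probe set signals fall under, was treated as at the floor. A difference of at least 2-fold between 2 arrays (1 on the log2 scale) counted as a call, and "rose" and "fell" are used of such genes. Where 1 side lay at the floor the fold is given as at least that value. With 1 array per time there is no test and no p-value. The only error available is technical, the SD with which probe sets of 1 gene disagree on its change: 0.41 on the log2 scale between 24 and 0 h over 2727 genes, 0.49 between 72 and 0 h over 2702 and 0.36 between the later times over 2785. It leaves out the spread between cultures.

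Of the 45 member genes, 33 were above the floor on at least 1 array and 22 on all 3. The 12 genes under the floor on all 3 arrays were Gna14, Gnao1, Gnasas1, Gnat1, Gnb3, Gng13, Rgs5, Rgs6, Rgs7, Rgs8, Rgs17 and Rgs20. Among them are Gnao1, Rgs6, Rgs7 and Rgs8, known from neurons, and Gnat1, the transducin of rod photoreceptors. At 24 h against 0 h, 31 members were measured, of which 2 rose and 5 fell, and over all genes 13.2% rose and 9.22% fell. At 72 h against 0 h, 32 members were measured, of which 3 rose and 8 fell, against 12.5% and 12.8% of all genes. At 72 h against 24 h, 30 members were measured, of which 2 rose and 1 fell, against 6.92% and 10.0% of all genes. The median log2 difference of the measured members was -0.06 at 24 h against 0 h, -0.11 at 72 h against 0 h and -0.10 at 72 h against 24 h, beside 0.12, -0.01 and -0.14 over all genes. These medians were relative to the array median, and on the deposited scale, whose array medians exceed that of 0 h by 0.73 (24 h) and 0.77 (72 h) in log2, the members' medians turned positive at 0.50 and 0.64. On that scale 39.0% of all genes rose and 3.71% fell at 24 h, and 35.0% rose and 5.33% fell at 72 h. In all, 11 members were called in at least 1 comparison and 22 were measured but never called. The plot of signals by time shows the 11 called members with Gna13.

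**Figure D1:**
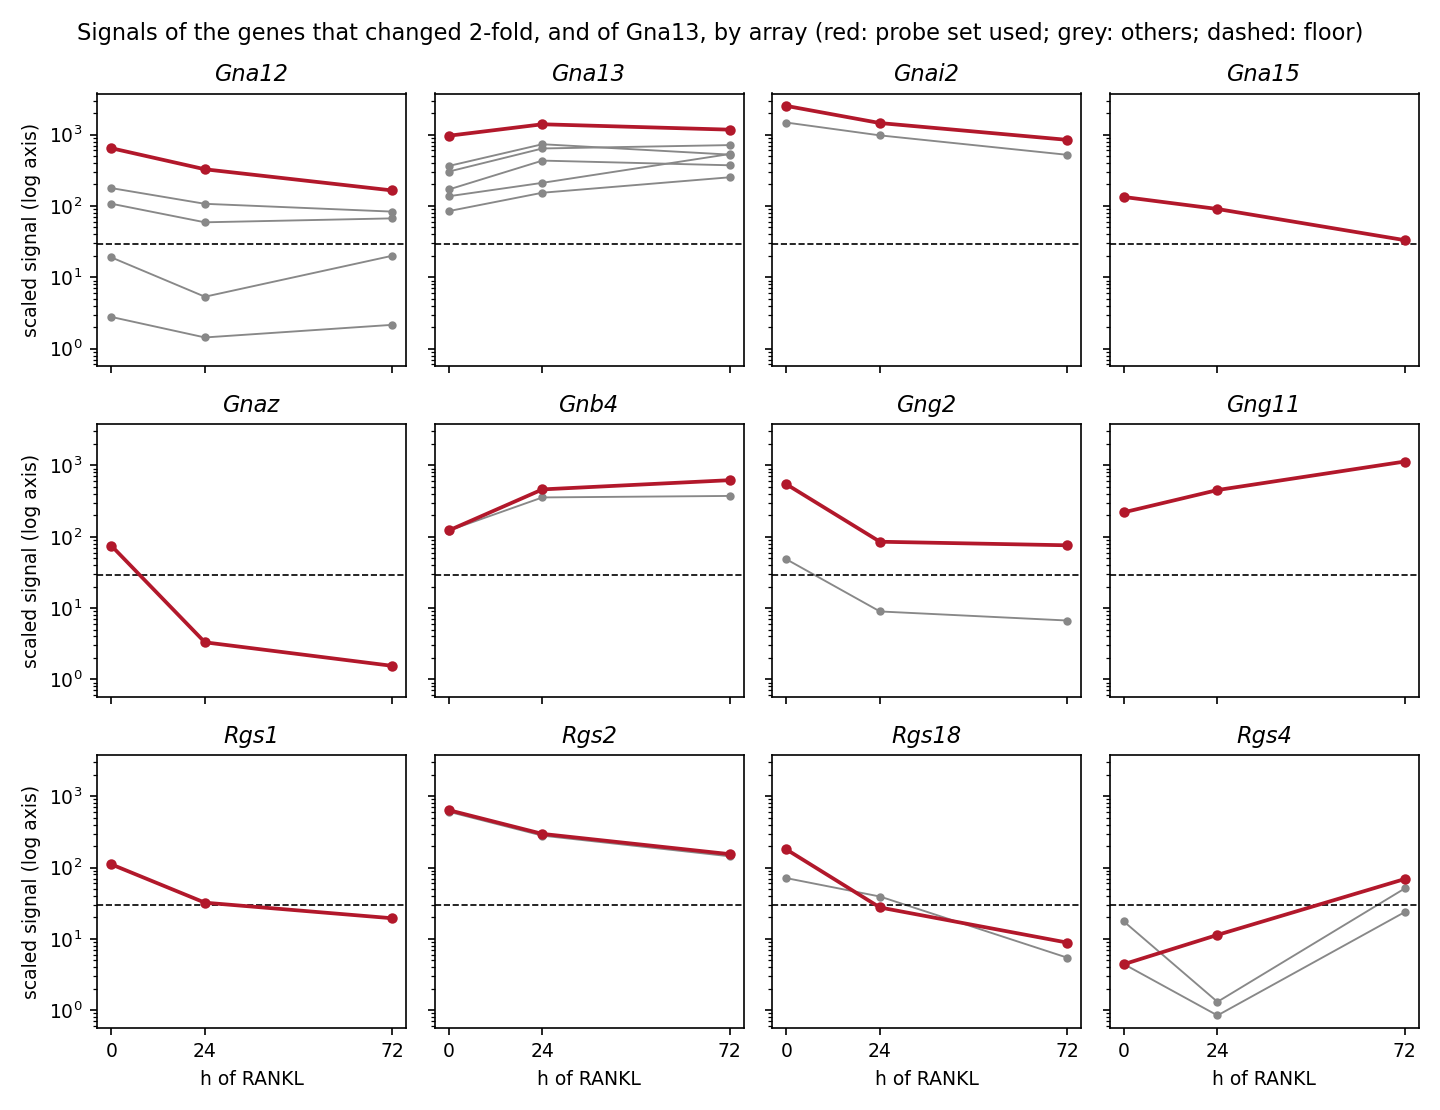
Median-centred signal (log axis) of 11 called member genes and Gna13 at 0, 24 and 72 h of RANKL, 1 array per time, with red lines for the probe set that stands for the gene, grey lines for its other probe sets and a dashed line at the floor of 29.6. Gnb4 and Gng11 climb at both later times, Gng2, Rgs1, Rgs2, Rgs18 and Gnaz drop by 24 h, and Rgs4 leaves the floor at 72 h only.

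Among the alpha subunits, 1 of 10 measured genes fell at 24 h (Gnaz) and 4 fell at 72 h (Gna12, Gna15, Gnai2 and Gnaz), each against 0 h, and none rose by the 2-fold rule in either comparison. Beside these, 9.22% of all genes fell at 24 h and 12.8% at 72 h, so the count at 24 h is near the background. Of the 4 genes, Gnai2 and Gnaz belong to the Gi class, Gna15 to the Gq class and Gna12 to the G12 class. Gnai2, the Gi alpha subunit of leukocytes, had signals of 2528, 1453 and 845, in stepwise descent. That is a log2 difference of -0.80 at 24 h and of -1.58 at 72 h, or 2.99-fold lower at 72 h, and its other probe set gave 1477, 976 and 521. The call at 72 h does not survive on the deposited scale, where the 2-fold mark is not reached. Gnai3, another Gi alpha subunit, had 807, 819 and 643 and stayed within 2-fold. Gnai1, the remaining Gi subunit, lay near the floor with 26.8, 17.0 and 53.1. Gnas, the Gs alpha subunit that stimulates adenylyl cyclase, had 2028, 1667 and 2997, lowest at 24 h and highest at 72 h, with log2 differences of -0.28 at 24 h and 0.56 at 72 h against 0 h, which become 0.45 and 1.34 on the deposited scale.

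Gnaz, a Gi relative known from platelets and neurons, was above the floor at 0 h only, with 75.2, 3.31 and 1.55, so it was at least 2.54-fold lower at both later times, a bound that is under 2-fold on the deposited scale. Among the Gq class, Gna15, whose expression is largely restricted to blood cells, had 134, 90.7 and 33.2. It was 4.03-fold lower at 72 h than at 0 h and 2.73-fold lower at 72 h than at 24 h, the only member called lower between the later times. The value at 72 h lies just above the floor, and the call is lost under a 60th percentile floor. Gna11 and Gnaq, its widely expressed relatives, stayed within 2-fold, with 77.8, 86.3 and 106 for Gna11 and 36.7, 30.3 and 44.9 for Gnaq. Gnat2, the transducin of cones, was at the edge of the floor with 25.7, 33.3 and 22.1.

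The alpha subunits of G12 and G13, close relatives of each other, had differences of opposite sign. Gna12 had 646, 327 and 165, a log2 difference of -0.98 at 24 h and of -1.97 at 72 h, or 3.91-fold lower at 72 h. Of its 5 probe sets 2 were under the floor, and the other measured ones gave 178, 107 and 83.4, with a log2 difference of -1.09 at 72 h, and 108, 59.0 and 67.0, with -0.68. All 3 measured probe sets were thus lower at 72 h than at 0 h, by unequal amounts, and the call is lost when a gene's probe sets are averaged. Gna13 was represented by the brightest of its 6 probe sets, at 964, 1397 and 1174, which did not reach 2-fold in any comparison, with log2 differences against 0 h of 0.53 at 24 h and 0.28 at 72 h (1.26 and 1.06 on the deposited scale).

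The other 5 probe sets of Gna13 gave a wider picture of that gene, whose loss in mouse cells is known to increase osteoclast formation. Their log2 differences at 24 h against 0 h ran from 0.62 to 1.34, and those at 72 h against 0 h from 0.53 to 1.97. All 6 probe sets were higher at both later times than at 0 h, and the 2-fold mark was passed by 3 of 6 at 24 h and by 4 of 6 at 72 h. The probe set with the most growth had 137, 211 and 535, and the next, 84.7, 153 and 252. Under the rule of 1 probe set per gene Gna13 counts as within 2-fold, and which probe set reports it best was not tested.

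Of the 3 members that rose, 2 were beta or gamma subunits. Among the beta genes 1 of 4 measured rose at 24 h and at 72 h against 0 h, beside 13.2% and 12.5% of all genes. Gnb4, a beta subunit, had 122, 461 and 621, which made it 3.77-fold higher at 24 h and, against the same 0 h array, 5.07-fold higher at 72 h. Its other probe set gave 122, 356 and 373, with log2 differences of 1.54 and 1.61, so both report the rise by 24 h and differ on how far it went on. The other measured beta genes stayed within 2-fold. Gnb1 had 972, 967 and 1026, Gnb2 had 1895, 2096 and 1760, and Gnb5, the beta subunit that pairs with the R7 class of RGS proteins, had 72.9, 70.0 and 94.5. Gnb1l, outside the subunits proper, had 21.6, 56.1 and 53.5, so that its log2 differences of at least 0.93 and at least 0.86 are bounds set by the floor, and it counts as higher at both later times with a 20th percentile floor.

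Among the gamma subunits Gng11 rose and Gng2 fell, so 1 of 6 measured genes rose and 1 of 6 fell at each later time against 0 h. Over all genes 13.2% rose and 9.22% fell at 24 h, and 12.5% rose and 12.8% fell at 72 h, so these counts are near the background. Gng11, one of the few gamma subunits that carry a farnesyl rather than a geranylgeranyl tail, had 220, 452 and 1134, each time above the one before. It was 5.15-fold higher at 72 h than at 0 h and 2.51-fold higher at 72 h than at 24 h, whereas the log2 difference of 1.04 at 24 h against 0 h lies barely over the mark and is lost with quantile and trimmed mean scaling. Gng2, a widely used gamma subunit, had 545, 85.2 and 75.9. It was 6.40-fold lower at 24 h and 7.18-fold lower at 72 h than at 0 h, so nearly all of its fall was on the 24 h array. Its other probe set gave 48.4, 8.97 and 6.70, crossing the floor in the same interval. Of the remaining gamma genes, Gng10 with 853, 872 and 735 and Gng12 with 740, 452 and 439 stayed within 2-fold. Gng3 (32.1, 40.2 and 27.2) and Gng4 (45.2 at 0 h, 31.9 at 72 h and under the floor at 24 h) lay around the floor and had no call. Where 1 side was at the floor their folds are bounds, such as at least 1.53-fold lower for Gng4 at 24 h against 0 h. Gnb4 and Gng2 kept their calls at both later times under all 9 other scalings, floors and probe set rules tried.

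RGS proteins of the R4 class, the small ones made of little more than the RGS domain, gave every RGS call with median centring and the floor of 29.6. Of 5 measured at 24 h 3 fell, and of 6 measured at 72 h 3 fell and 1 rose, beside 9.22% of all genes lower at 24 h and 12.8% lower and 12.5% higher at 72 h. Rgs2, which acts mainly on Gq, had 638, 296 and 154, or 2.15-fold lower at 24 h and 4.14-fold lower at 72 h, with a log2 difference of -0.38 at 24 h on the deposited scale. Its other probe set gave 606, 280 and 144, close to the first at every time. Rgs1, a brake on chemokine receptor signals in lymphocytes, had 111, 32.2 and 19.5, with a log2 difference of -1.79 at 24 h and a fall of at least 3.75-fold at 72 h. Rgs18, a blood cell RGS protein that restrains osteoclast formation in mouse cultures and is abundant in platelets, had 180, 27.6 and 8.87, at least 6.08-fold lower at both later times. Its other probe set, with 71.1, 39.3 and 5.45, had a log2 difference of -0.86 at 24 h and was at the floor at 72 h.

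Rgs4, best known from brain, was under the floor at 0 and 24 h and had 69.0 at 72 h, which makes it at least 2.34-fold higher at 72 h than at either earlier time. Its other probe sets had 17.5, 1.31 and 50.9, and 4.43, 0.845 and 23.8, so 2 of 3 cleared the floor at 72 h. The call is lost under a 60th percentile floor and when probe sets are averaged. Rgs16, also of the R4 class and inducible in many cells, was under the floor at 0 h and above it later, with 19.8, 52.4 and 44.8 and log2 differences of at least 0.83 and at least 0.60, which pass the mark with a 20th percentile floor. Of its 3 probe sets 1 passed the mark at 72 h, with 11.8, 49.9 and 63.5. Rgs3 had 151, 202 and 219 and stayed within 2-fold, though 1 of its 3 measured probe sets had a log2 difference of 1.35 at 72 h against 0 h.

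The RGS genes outside the R4 class had no call with median centring and the floor of 29.6. Rgs10, of the R12 class, had 1462, 1295 and 1730, a spread smaller than 2-fold across the series. Rgs19, of the RZ class, had 469, 582 and 623. On the deposited scale Rgs10 had 1034, 1517 and 2088, and Rgs19 had 331, 682 and 752. There Rgs10 passed the 2-fold mark at 72 h against 0 h, and Rgs19 at both later times. On that scale 39.0% of all genes rose at 24 h and 35.0% at 72 h. Rgs14, an R12 protein that also binds Ras relatives, had 226, 175 and 121 and a log2 difference of -0.90 at 72 h against 0 h, short of the mark. The R7 genes Rgs9, the photoreceptor and striatal partner of Gnb5, and Rgs11 had 56.9, 64.5 and 51.1, and 46.5, 23.9 and 21.8.

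**Figure D2:**
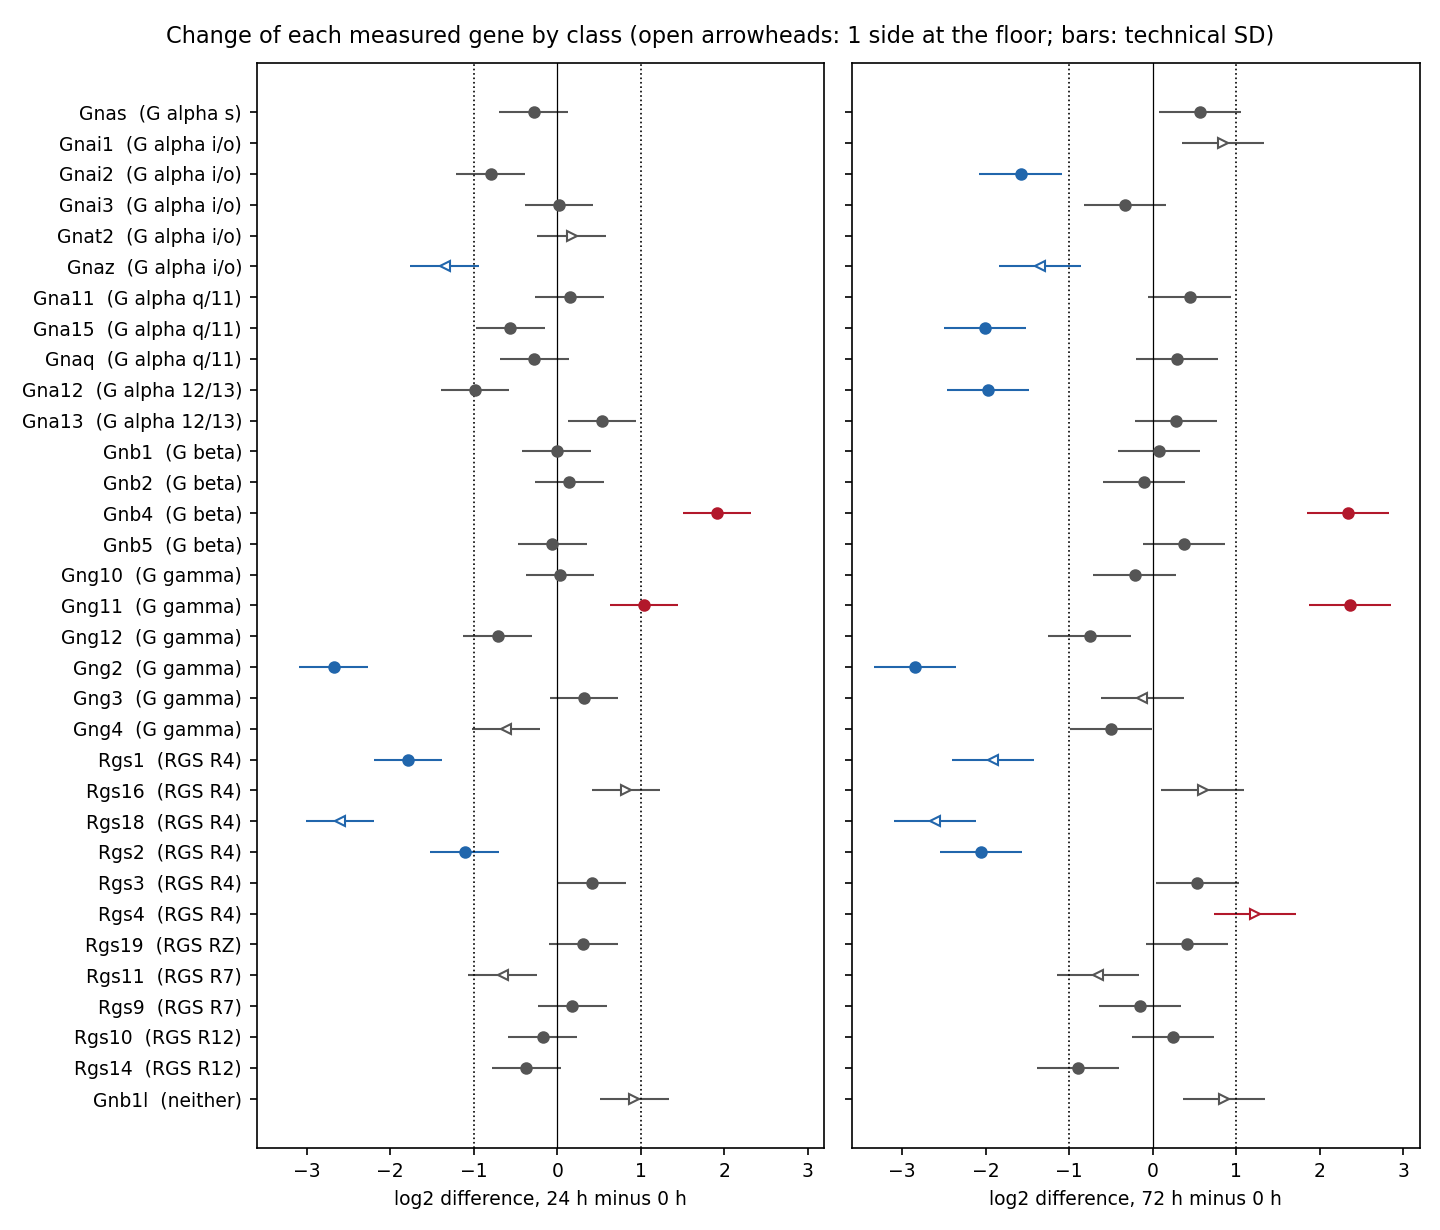
Log2 difference of each measured member at 24 h against 0 h and at 72 h against 0 h, grouped by subunit or RGS class, with open arrowheads where 1 side is at the floor, dotted lines at 2-fold, and horizontal bars for the technical SD (0.41 and 0.49). That SD comes from probe sets above the floor on both arrays, so the bars on open arrowheads do not give the error of those bounds. The values run from -2.84 (Gng2 at 72 h) to 2.36 (Gng11 at 72 h), and most members lie between the dotted lines.

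Probe sets of 1 gene mostly pointed the same way against 0 h. At 24 h, 13 of 14 member genes with at least 2 measured probe sets had the same sign in all of them, Gnai3 being the exception, and at 72 h 14 of 15, with Gnb1 the exception. Between 24 and 72 h the signs matched in 6 of 13. No member had probe sets called in opposite directions.

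In the order of protein-coding genes of the RefSeq annotation of GRCm38.p6, Rgs2, Rgs13, Rgs1, Rgs21 and Rgs18 follow each other on chromosome 1 with 0 genes between them. Rgs13 and Rgs21 were not analysed here. The 3 measured genes of the run were lower at both later times than at 0 h, beside 9.22% of all genes lower at 24 h and 12.8% at 72 h. They are the same R4 genes counted above as having fallen, so the run adds no further calls. The other neighbouring pairs were mixed. Rgs4, which rose, lies next to Rgs5, which was under the floor throughout, Rgs16 lies next to Rgs8, also under the floor, and Gna15, which fell at 72 h, lies next to Gna11, which stayed within 2-fold. Gna13 and Rgs9 are neighbours that both stayed within 2-fold by the probe set used, though 4 of 6 Gna13 probe sets passed the mark at 72 h. The neighbours Gnat2, at the edge of the floor, and Gnai3 had no call, and neither had Gnaq beside Gna14, which was under the floor.

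The RefSeq promoter sequences of 4 genes are given for 2 pairs of genes: Gna12 and Gna13, the related alpha subunits whose measured probe sets differed from 0 h with opposite signs, and Gng2 and Rgs2, which fell by 24 h. Each is the 250 bases before the annotated start, on the gene's own strand, in GRCm38.p6: chr5:140830432-140830681 (minus strand) for Gna12, chr11:109362544-109362793 (plus strand) for Gna13, chr14:19976694-19976943 (minus strand) for Gng2 and chr1:144004150-144004399 (minus strand) for Rgs2. Capitals mark matches, on either strand, to any of the 8 motifs searched.
Gna12: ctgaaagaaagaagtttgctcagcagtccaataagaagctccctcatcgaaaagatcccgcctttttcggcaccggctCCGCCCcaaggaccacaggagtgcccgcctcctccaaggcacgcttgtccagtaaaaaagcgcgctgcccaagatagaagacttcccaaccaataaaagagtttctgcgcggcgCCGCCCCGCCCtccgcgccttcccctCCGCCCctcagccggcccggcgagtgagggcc
Gna13: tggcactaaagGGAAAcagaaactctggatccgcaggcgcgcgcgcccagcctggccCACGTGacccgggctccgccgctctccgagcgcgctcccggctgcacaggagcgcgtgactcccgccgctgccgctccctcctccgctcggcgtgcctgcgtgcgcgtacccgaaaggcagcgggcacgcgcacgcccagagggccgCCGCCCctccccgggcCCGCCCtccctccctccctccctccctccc
Gng2: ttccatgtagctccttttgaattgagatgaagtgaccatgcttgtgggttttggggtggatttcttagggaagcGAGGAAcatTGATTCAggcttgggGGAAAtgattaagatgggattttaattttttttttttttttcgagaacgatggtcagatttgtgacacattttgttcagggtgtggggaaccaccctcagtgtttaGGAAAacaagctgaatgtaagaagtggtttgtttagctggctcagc
Rgs2: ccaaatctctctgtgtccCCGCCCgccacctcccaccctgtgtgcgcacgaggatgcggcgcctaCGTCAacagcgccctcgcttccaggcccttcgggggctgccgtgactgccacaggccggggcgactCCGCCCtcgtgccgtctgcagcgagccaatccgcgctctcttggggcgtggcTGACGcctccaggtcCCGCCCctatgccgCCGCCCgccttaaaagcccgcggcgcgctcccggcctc
The motifs were the cAMP response element TGACGTCA and its core TGACG, the AP-1 site TGANTCA, the NFAT core GGAAA, the PU.1 core GAGGAA, the GC box GGGCGG, the E-box CACGTG and the TATA box TATAAA. The short cAMP core lies within the full element, and the PU.1 and NFAT cores can overlap. Gna12 held 4 GC boxes and no other match, whereas Gna13 held 2 GC boxes, 1 E-box and 1 NFAT core. Gng2 held 1 AP-1 site, 2 NFAT cores and 1 PU.1 core and no GC box, in a sequence of 41.2% G and C beside a median of 52.4% over 32851 promoters. Rgs2 held 4 GC boxes and 2 cAMP response element cores, 185 and 67 bases before the start. Such matches are common: of the 32851 promoters, 32.7% held the GC box, 55.6% the NFAT core, 23.3% the PU.1 core, 17.8% the cAMP response element core, 6.75% the AP-1 site, 6.02% the E-box, 12.4% the TATA box and 1.55% the full cAMP response element. A match describes the sequence and is not a site.

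The partners of these genes up and down the pathway were read from lists of receptors and effectors. Among receptors coupled to G proteins more fell than rose: of 37 measured at 24 h 3 rose and 17 fell, and of 38 measured at 72 h 5 rose and 19 fell, with median log2 differences of -0.88 and -1.02 that remain negative on the deposited scale (-0.44 and -0.57). Over all genes, against which the counts of each pathway list are to be read, 13.2% rose and 9.22% fell at 24 h and 12.5% rose and 12.8% fell at 72 h. Cx3cr1, the fractalkine receptor, had 1772, 420 and 51.6, or 34.4-fold lower at 72 h than at 0 h. P2ry6, a receptor for UDP, had 2095, 451 and 139, or 15.1-fold lower at 72 h. Gpr65, a proton-sensing receptor, was 9.23-fold lower at 24 h and at least 12.4-fold lower at 72 h. Calcr, the calcitonin receptor, went the other way, with 22.8, 7.84 and 463, at least 15.7-fold higher at 72 h than at 0 h. The other 4 genes of the list that rose at 72 h were Gpr137b, Lpar1, Ccr1 and F2r, named here after their values were seen. Calcr and Adgre1 of this list are also counted among the osteoclast and macrophage markers below. Gpr137b, a lysosomal membrane protein that the list counts with the receptors, was 10.9-fold higher at 72 h than at 0 h.

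The other 7 lists had median log2 differences between -0.75 and 0.28 at 24 h and between -1.12 and 0.00 at 72 h, and on the deposited scale, where the bulk of genes shifts up, most of these medians are positive. Among receptor kinases and arrestins, none of 4 measured genes rose at either time, 1 fell at 24 h and 2 fell at 72 h. Arrb2, the arrestin that uncouples and internalises receptors, had 1650, 596 and 269, or 6.13-fold lower at 72 h than at 0 h, and Grk5, a receptor kinase, was 2.94-fold lower at 72 h. Of 5 adenylyl cyclases measured, Adcy3 rose, with 104, 210 and 347, Adcy6 fell at 24 h and Adcy7 fell at 72 h, where it was 2.12-fold lower. Among cyclic nucleotide phosphodiesterases, Pde8a, specific for cyclic AMP, was 3.99-fold higher at 24 h and 3.81-fold higher at 72 h, while Pde2a was 3.36-fold lower at 72 h. Of 16 measured genes of the cyclic AMP dependent kinase list, 2 rose and 1 fell at 24 h and 1 rose and 3 fell at 72 h. Pkib, an inhibitor of that kinase, was 3.76-fold lower at 24 h and 5.07-fold lower at 72 h, and Prkacb, a catalytic subunit, was 2.83-fold lower at 72 h.

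In the phospholipase C and inositol trisphosphate receptor list, which also holds protein kinases, 1 of 12 measured genes rose and 2 fell at 24 h. At 72 h 1 rose and 4 fell. The phospholipase C beta genes, the Gq effectors named above, had no call. Plcb2 had 30.1, 48.1 and 49.9, barely above the floor at 0 h, and log2 differences against 0 h of 0.68 at 24 h and 0.73 at 72 h. Those of Plcb3 were 0.10 and -0.57. Plcb1 and Plcb4 were under the floor. The inositol trisphosphate receptors, calcium release channels of the endoplasmic reticulum, moved in opposite directions: Itpr3 was 6.17-fold higher at 24 h and 3.84-fold higher at 72 h, while Itpr2 was 3.50-fold lower at 24 h and 4.49-fold lower at 72 h. Prkcb, a protein kinase C, had 1066, 122 and 490, lowest at 24 h. On the G12, G13 and beta-gamma side, 1 of 13 measured genes rose and 3 fell at 24 h, and 3 rose and 2 fell at 72 h. Dock5, a Rac activator needed for bone resorption by mouse osteoclasts, was 6.63-fold higher at 24 h and 5.38-fold higher at 72 h. Dock2, its leukocyte relative, was 10.8-fold lower at 72 h, and Pik3cg, the phosphoinositide kinase that beta-gamma activates, was 2.33-fold lower at 24 h and 5.71-fold lower at 72 h. Among 14 other regulators measured at 24 h and 13 at 72 h, Zmpste24, a protease of prenylated proteins, was 2.25-fold higher at 24 h, and Gpsm3 and Axin1 were 2.62-fold and 2.14-fold lower at 72 h.

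**Figure D3:**
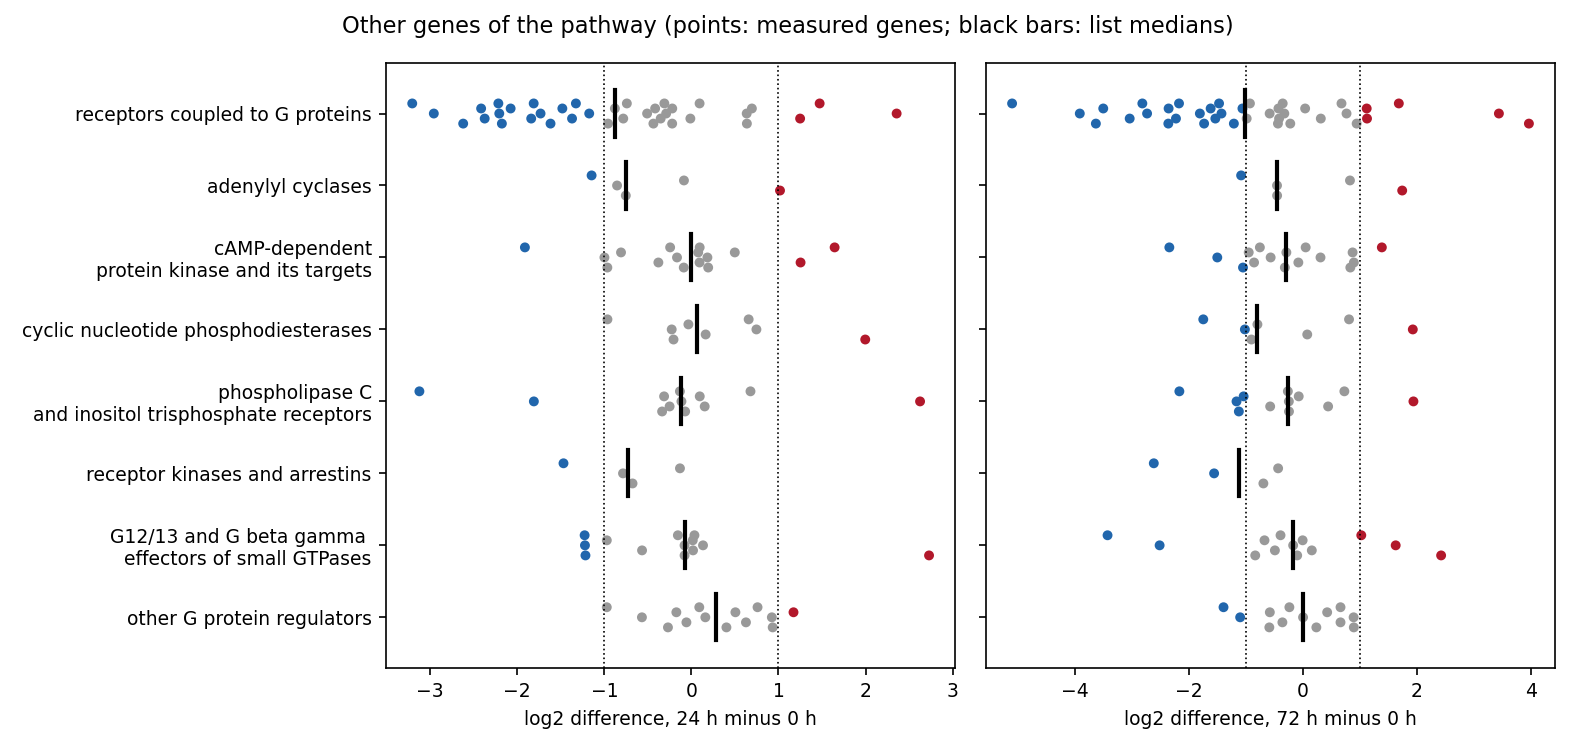
Log2 difference of each measured gene of the 8 pathway lists at 24 h and at 72 h against 0 h, with black bars at the list medians, dotted lines at 2-fold and colour for genes past them (red higher, blue lower). The receptor list, the longest, had 17 of 37 measured genes lower at 24 h and 19 of 38 at 72 h. The other lists, of 4 to 16 measured genes, had at most 4 calls in either direction. Among receptor kinases and arrestins 2 of 4 were lower at 72 h. Over all genes 9.22% were lower at 24 h and 12.8% at 72 h.

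Markers of several cell types moved over the same hours. Summed signals of 9 osteoclast markers were 1929, 8639 and 33298 at 0, 24 and 72 h, and all 9 were higher at 72 h than at 0 h. Those of 13 macrophage markers were 42533, 19679 and 22636, with 10 of 13 lower at 24 h and at 72 h. Of the others, Csf1r and Lyz2 stayed within 2-fold, and Cd68 was 2.34-fold higher at 72 h than at 0 h. Summed signals of 10 neutrophil markers were 18825, 12821 and 1356, with 3 of 10 lower at 24 h and 10 of 10 at 72 h. Beside the falls of Gnaz and Rgs18, both named above for platelets, 9 megakaryocyte and platelet markers summed to 9823, 1949 and 955. Of these 9 of 9 were lower at both later times, with median log2 differences of -2.02 and -2.71, and Clec1b was at the floor at 24 and 72 h. Stromal and osteoblast markers summed to 3167, 3592 and 10560. Of 11 measured at 72 h, 5 were higher than at 0 h (Col1a1, Col1a2, Col3a1, Postn and Sparc) and Dcn was 2.78-fold lower. Cxcl12 stayed within 2-fold, Lepr had no call but was at the floor at 72 h, and Ibsp was at the floor on all 3 arrays. Endothelial and pericyte markers summed to 1386, 1246 and 4150, of which Acta2 gave 3933 at 72 h while Pecam1 and Cdh5 stayed at the floor. The part of these cell types in the members' changes was not tested, and in such bulk RNA fewer cells of a type and less RNA per cell cannot be told apart. B cell, T and NK cell, mast cell, dendritic cell and erythroid markers were mostly at the floor, with sums of 92.7 to 344.

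**Figure D4:**
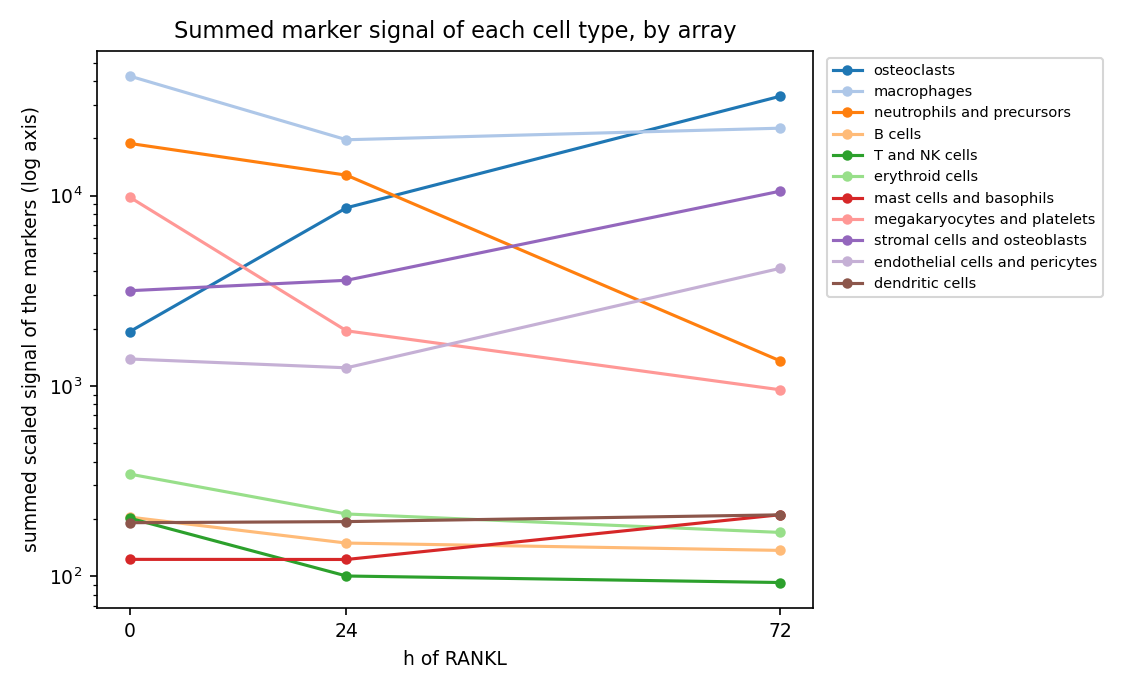
Summed median-centred signal (log axis) of the marker genes of each cell type at 0, 24 and 72 h of RANKL, 1 array per time. Osteoclast markers climb to 33298 at 72 h, while megakaryocyte and platelet markers drop by 24 h and neutrophil markers drop between 24 and 72 h.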

How the data were processed

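Each of 3 mouse bone marrow cultures was measured on 1 Affymetrix array from 5 µg of RNA. The deposited values are linear intensity signals per probe set, made with MAS5 per the submitters' processing notes, whose version and scaling are not given in the sources used here. Of the deposited probe sets 64 were controls and 22626 were for genes, named through the platform annotation of 2016. All 45 member genes matched RefSeq by gene identifier. The deposited arrays had unequal medians (36.7 at 0 h, 60.9 at 24 h and 62.7 at 72 h), so log2 signals were centred on each array's median over gene probe sets, keeping the mean level.

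Each gene was read from 1 single-symbol probe set, the one whose log2 signal had the highest mean, counted as measured when 1 of the 2 arrays compared was above the floor (29.6), and called at 2-fold. With 1 array per time no test was made, and precision is limited by the number of arrays. Technical error was the SD of the difference in change between a gene's probe sets, divided by the square root of 2. All members are accounted for, with signals for those called in any comparison and for the brightest of each class; in pathway lists, up to 4 called genes with the largest difference per comparison may be named. Members and lists were chosen with earlier results of these data known. Alternatives tried were other scalings, other floors and thresholds, and other probe set rules. The steps were tested on simulated data with large changes planted in bright genes only, so calls near the floor were not tested this way. Python 3.11.15, pandas 2.3.3, NumPy 2.4.6 and matplotlib 3.10.9 were used.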

Additional observations from a re-analysis of the deposited data

How the results depend on the processing

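No call of a member changed direction under any alternative. Shares over all genes follow each setting in brackets, higher then lower. At 24 h against 0 h, where 2 members rose and 5 fell, 7 rose and 3 fell on the deposited scale (39.0% and 3.71%), 1 rose and 7 fell with quantile scaling (10.1% and 11.4%), and 1 rose and 6 fell with trimmed means (9.13% and 12.5%). In the same comparison 4 rose and 7 fell with a 20th percentile floor (13.5% and 11.9%), 2 and 2 with a 60th percentile floor (13.2% and 8.35%), 8 and 7 without any floor (16.3% and 15.2%), and 4 and 10 at a 1.5-fold threshold (26.7% and 17.8%). At 72 h against 0 h, where 3 rose and 8 fell, 12 rose and 6 fell on the deposited scale (35.0% and 5.33%), 5 and 11 with the 20th percentile floor (13.5% and 15.0%), 2 and 4 with the 60th (11.9% and 11.3%), 7 and 12 without a floor (16.0% and 18.4%), and 6 and 11 at 1.5-fold (23.2% and 23.3%). The member medians on the deposited scale were 0.50 at 24 h and 0.64 at 72 h. At 72 h against 24 h, where 2 rose and 1 fell, 4 rose and 4 fell with the 20th percentile floor (9.03% and 11.7%), 1 and 0 with the 60th (5.92% and 9.16%), 4 and 7 without a floor (11.99% and 15.3%), and 4 and 4 at 1.5-fold (14.2% and 24.2%). There, 2 rose and 2 fell with scaling to hybridization controls (6.67% and 10.4%), 1 and 1 with probe sets averaged (7.05% and 8.89%), and 2 and 0 without probe sets for several transcripts (6.49% and 9.86%). Signals under the floor are set to it, so by definition a higher floor can only shrink a difference and leave genes unmeasured.

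Of 9 alternatives other than the threshold, Gnb4 and Gng2 kept their calls in 9 at both later times and Gng11 in 9 at 72 h but 7 at 24 h. Against 0 h at 72 h, Rgs2 kept its call in 9, Gna12, Rgs1 and Rgs18 in 8, and Gna15, Gnai2, Gnaz and Rgs4 in 7; Gna15 and Gnai2 have no probe set left where those for several transcripts are left out. No paired analysis was possible because each time has 1 array, and for the same reason leaving out a replicate was not run. Low signals such as those of Gnaz and Rgs4 give bounds only.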

Other observations

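Gng5, a gamma subunit, has 3 probe sets that carry a second symbol, a Gng5 pseudogene, and so stood outside the members. Their median-centred signals at 0, 24 and 72 h were 2353, 2561 and 3462 for the brightest, 1974, 1706 and 1978 for the next, and under the floor on all 3 arrays for the last. Both measured probe sets stayed within 2-fold.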
